A study of Drosophila melanogaster with 6 samples.

Results

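The regions described here are the GAGA factor (GAF) peaks on U and Uextra, the sequences of the Drosophila melanogaster release 5 assembly that hold scaffolds not placed on a chromosome. They were taken as every peak whose sequence name was U or Uextra, with no other filter. That gave 3731 of the 11713 peaks in the list, 480 on U and 3251 on Uextra, or 31.9% of all peaks (95% Wilson interval 31.0 to 32.7). The binding of GAF, the product of the Trl gene, was mapped in embryos aged 8 to 16 h by ChIP-seq, in which DNA bound by a protein is pulled down with an antibody and sequenced. The study had 3 GAF ChIP libraries and 3 input libraries, input being the DNA before immunoprecipitation, and 1 list of peaks with no value per library. ChIP and input came from the same kind of embryo, of the strain Y cn bw sp, fixed in 1.8% formaldehyde for 15 min. Their genotype carried the alleles y[1] and oc[R3.2]. It also carried the alleles Gr22b[1] and Gr22d[1], with cn[1], bw[1] and sp[1], and CG33964[R4.2] beside them. The other alleles were LysC[1] and MstProx[1], with GstD5[1], Rh6[1] and lab[R4.2]. The ChIP libraries used KW3-Trl-D2, a rabbit polyclonal antibody to a stretch of GAF. Whole embryos mix all cell types, so no peak can be assigned to a tissue.

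GAF is a zinc finger protein with a BTB domain that recognises GA-rich sequence and helps keep promoters and regulatory elements accessible. It also binds GA-rich satellite repeats in heterochromatin, where it is seen on mitotic chromosomes. Scaffolds rich in repeats are hard to place on a chromosome, and U and Uextra collect such scaffolds end to end. A position on U or Uextra is therefore an address in a concatenation, and neighbours can come from different scaffolds. A peak that spans a join, or copies of one repeat that share reads, could not be recognised from the list. How reads with several matching places were treated is not given in the sources used here.

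Peaks were sparser on U than on Uextra. On U they ran from 47696 to 10034069, at 48.1 peaks per Mb of the span from first to last peak. On Uextra they ran from 27610 to 29004746, at 112 peaks per Mb. The chromosome arms, with 7429 peaks, had 61.7 per Mb, and the 547 peaks on the heterochromatic scaffolds (named Het in the assembly) had 60.1 per Mb. The median gap to the next peak was 8149 bp on U and 4992.5 bp on Uextra. Peaks covered 2.40% of the span of U and 5.25% of the span of Uextra. With 1 list there was no replicate error for any of these values, and none of the differences between sequences was tested.

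The authors' score, a positive number for each peak, had a median of 69.9 on U (quartiles 28.3 and 183) and 54.9 on Uextra (quartiles 18.1 and 212). The median was 68.9 on the arms and 65.8 on the heterochromatic scaffolds. Median widths were 393 bp on U, 390 bp on Uextra, 406 bp on the heterochromatic scaffolds and 527 bp on the arms. Strong peaks, here those scoring 300 or more, made up 13.5% of peaks on U (10.8 to 16.9) and 17.7% on Uextra (16.4 to 19.1), against 29.0% on the arms (27.97 to 30.04) and 24.4% of the whole list. Weak peaks, here those scoring under 20, made up 16.3% on U (13.2 to 19.8) and 27.8% on Uextra (26.3 to 29.4), against 28.1% on the arms (27.1 to 29.1) and 27.4% of the whole list. On the heterochromatic scaffolds strong peaks made up 12.4% (9.93 to 15.5) and weak peaks 26.9% (23.3 to 30.7). U thus had a smaller share of weak peaks than Uextra, the arms or the whole list, and the intervals did not overlap. These Wilson intervals treat peaks as independent and cover counting error only.

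**Figure D1:**
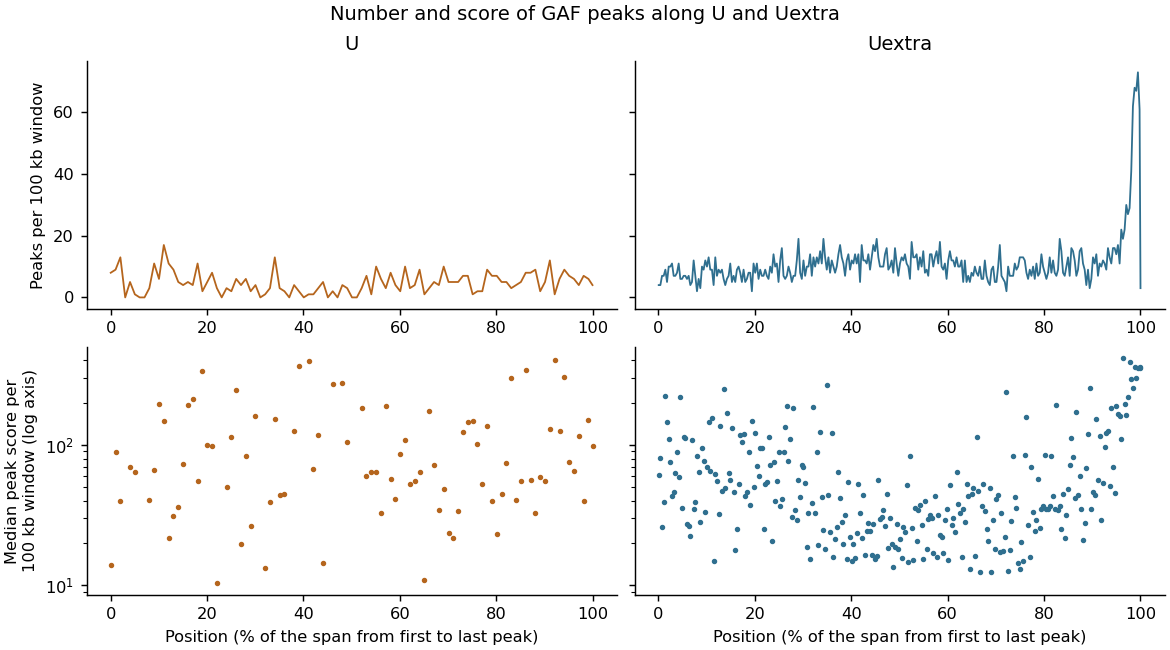
GAF peaks along U (left) and Uextra (right) in 100 kb windows, with position given as percent of the span from first to last peak. The upper row shows peaks per window and the lower row the median score per window on a log axis. Counts stay at or under 17 on U, while on Uextra they climb to 73 near the right end.

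The unplaced sequences had few of the highest scores. The best unplaced peak ranked 58th in the list, and 2 unplaced peaks, both on Uextra, were among the 118 peaks that make up the top 1% of scores. The heterochromatic scaffolds likewise had 0 of their 547 peaks there, and the arms 116 of 7429. The 2 unplaced ones were Uextra 561418 to 562768, with a score of 1665.16, and Uextra 698143 to 699449, with a score of 1621.21. Both lay in the first Mb. The nearest neighbour was 26683 bp away from the peak scoring 1665.16 and 8975 bp away from the other. On U the strongest peak, at 9933943 to 9935111, scored 1400.03, and the next, at 8366545 to 8367161, scored 759.89. Among the 20 unplaced peaks with the highest scores, 1 was on U and 19 on Uextra, 12 of them from 26 Mb on. Of all 3731 unplaced peaks, 480 were on U and 3251 on Uextra.

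**Figure D2:**
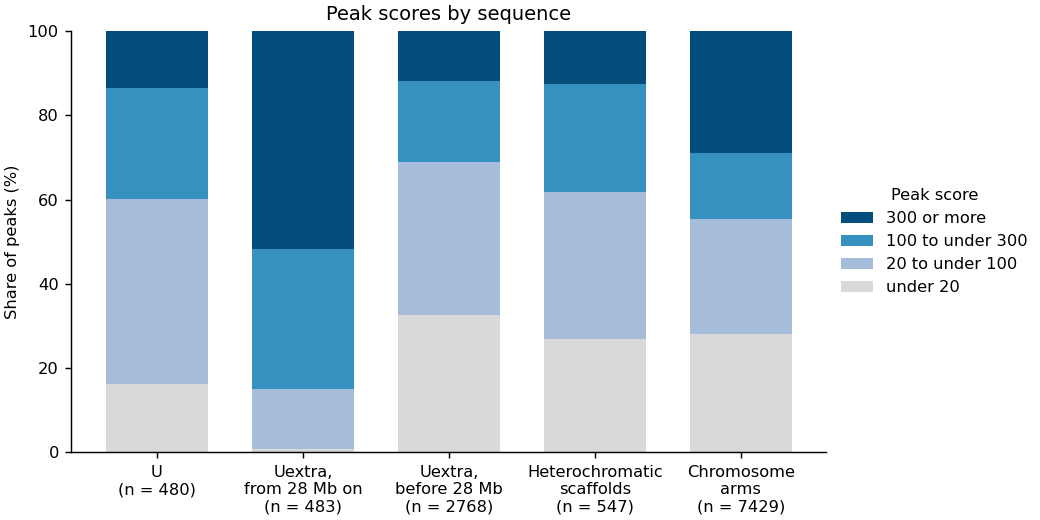
Share of peaks in each class of the authors' score, stacked to 100%, for U, for Uextra from 28 Mb on and before 28 Mb, for the heterochromatic scaffolds and for the chromosome arms. Peaks scoring 300 or more reach 51.8% in Uextra from 28 Mb on, and lie between 11.8% and 29.0% in the other sets.

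The last Mb of Uextra stood apart from the rest of the sequence. Its 483 peaks, from 28 Mb on, lay at 483 per Mb and covered 36.4% of their span, against 98.96 per Mb and 4.14% for the 2768 peaks before 28 Mb. Median scores were 310.2 from 28 Mb on and 39.7 before it, and median widths were 597 and 371 bp. Strong peaks made up 51.8% from 28 Mb on (47.3 to 56.2) and 11.8% before it (10.6 to 13.0). Weak peaks made up 0.828% from 28 Mb on (0.323 to 2.11) and 32.5% before it (30.8 to 34.3). The boundary of 28 Mb was set after the values were seen, so these figures describe the stretch and test nothing.

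The crowding built up over several windows of 100 kb. The window from 28000001 to 28100000 held 22 peaks on 11.2% of its bases, and the windows from 27000001 to 28000000 had held between 11 and 22. At 28400001 to 28500000 there were 41 peaks on 23.7% of the bases, and at 28500001 to 28600000 there were 62 peaks on 38.8%. The densest window of Uextra, 28800001 to 28900000, had 73 peaks on 62.7%. The last full window, 28900001 to 29000000, had 61 peaks on 74.8%. Peaks there were fewer but wider, with a median of 797 bp against 598 bp in the window before. Coverage thus kept increasing to the end while the number of peaks did not.

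Before 28 Mb, Uextra changed in a different way along its length. From 0 to 8 Mb it had 78.2 peaks per Mb, with a median score of 62.5, and 16.9% of peaks were weak (14.2 to 20.1). From 8 to 22 Mb it had 106.5 per Mb, with a median of 26.2, and 41.4% were weak (39.0 to 44.0). From 22 to 28 Mb it had 108.5 per Mb, with a median of 60.2, and 27.04% were weak (23.8 to 30.6). The extra peaks of the stretch from 8 to 22 Mb were weak ones. There were 13.2, 44.1 and 29.3 weak peaks per Mb in the 3 stretches, against 10.50, 8.71 and 20.0 strong peaks per Mb. The limits of these stretches were also set after the values were seen.

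U had no comparable end. Its densest 100 kb window, 1100001 to 1200000, held 17 peaks, and 200001 to 300000 and 3400001 to 3500000 held 13 each. Of 101 windows on U, 11 had no peak and 10 had 10 or more. All 291 windows of Uextra had a peak, and 157 had 10 or more. The longest stretches without a peak on U were 314643 bp, from 550055 to 864697, and 271449 bp, from 4994763 to 5266211. The longest on Uextra was 82841 bp, from 5640887 to 5723727.

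Close neighbours, under 500 bp away, were counted next. They were found for 32.9% of peaks on U (28.9 to 37.2) and 18.3% on Uextra (17.0 to 19.7), against 33.9% on the arms (32.84 to 34.99) and 30.2% of the whole list. On Uextra the share was 61.7% from 28 Mb on (57.3 to 65.9) and 10.7% before it (9.63 to 11.9). On U it was 54.0% from 0 to 2 Mb (45.3 to 62.6), 28.9% from 2 to 5 Mb (20.5 to 39.0) and 24.4% beyond 5 Mb (19.7 to 29.9). On the heterochromatic scaffolds it was 47.0% (42.8 to 51.2). The crowded end of Uextra thus exceeded the arms, and the rest of Uextra lay well under them.

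Groups of 3 or more peaks with every gap under 500 bp numbered 11 on U and 46 on Uextra, and 41 of the Uextra groups lay from 28 Mb on. They held 7.92% of peaks on U and 6.61% on Uextra, against 15.2% on the arms and 13.3% on the heterochromatic scaffolds. On Uextra the share was 41.4% from 28 Mb on and 0.542% before it. On U the largest group had 4 peaks, a size found 5 times. On Uextra the largest had 16 peaks, from 28972350 to 29004746, which is a stretch of 32397 bp with 29280 bp inside peaks. Scores in it ran from 219 to 612 with a median of 432. It was followed by groups of 8 peaks at 28718082 to 28728385 and at 28734637 to 28742252, and by groups of 7 at 28579019 to 28585540 and 28786952 to 28792492. In these smaller groups the lowest score was between 32.2 and 66.6 and the highest between 655.07 and 968.05, a wider range than in the group of 16.

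The widest unplaced peaks were on U, although its median width was near that of Uextra. One, at 2189471 to 2199640, measured 10170 bp and scored 416.5. Another, at 5288490 to 5297899, measured 9410 bp and scored 245.14, and it belonged to a group of 4 peaks that covered 14524 bp of 14950 bp. The third widest on U, 3118 bp, was in the same group. On Uextra the widest peak was 5547 bp, from 28975720 to 28981266, with a score of 445.16. The 5 widest peaks of Uextra all lay from 28 Mb on, 3 of them in the group of 16. Peaks of 1000 bp or more made up 3.75% on U (2.39 to 5.85) and 3.97% on Uextra (3.35 to 4.70), against 3.11% on the heterochromatic scaffolds (1.95 to 4.92) and 23.4% on the arms (22.4 to 24.4).

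Unplaced peaks scoring 20 or more were also narrower than arm peaks of like score, and so were peaks on the heterochromatic scaffolds. Among peaks scoring 300 or more, the median width was 596 bp on U (n = 65), 758 bp on Uextra from 28 Mb on (n = 250) and 602.5 bp on Uextra before it (n = 326), against 740.5 bp on the heterochromatic scaffolds (n = 68) and 1257.5 bp on the arms (n = 2154). Among peaks scoring 100 to under 200 it was 428.5 bp on U, 407 bp and 427 bp in those parts of Uextra, 435 bp on the heterochromatic scaffolds and 571 bp on the arms. Among weak peaks the medians were 297.5 bp on U and 270 bp on Uextra, against 291 bp on the heterochromatic scaffolds and 284 bp on the arms. Across peaks, Spearman's rho of width and score was 0.68 on U and 0.74 on Uextra, against 0.84 on the arms. Both come from the same peak calls, so this is a description.

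No single width recurred often. The most frequent was 200 bp, the narrowest width in the list, at 7 peaks on U (1.46%) and 41 on Uextra (1.26%), against 1.20% of the whole list. The next on U were 341 and 444 bp, 5 peaks each, and on Uextra 391 bp, 22 peaks, and 336 bp, 20 peaks. Exact spacings between the starts of neighbours hardly recurred. On U the spacings 630 and 767 bp occurred 3 times each, and on Uextra 945 and 1041 bp occurred 4 times each. In the most even run of 11 peaks on U, midpoint spacings had a coefficient of variation of 0.600. On Uextra the most even run, 28925007 to 28938985, had a coefficient of 0.178, with a mean spacing of 1354 ± 241 bp (SD, 10 spacings). The range over the arms was 0.222 to 0.708.

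At a coarser scale, distances did recur, and differently in each set. On U, 78 of 479 spacings between neighbouring midpoints (16.3%) were between 600 and 1000 bp. Counting all pairs up to 5 kb apart, U had 27 pairs at 700 to 800 bp and 22 at 800 to 900 bp, and no bin of 100 bp beyond 1200 bp had more than 11. On Uextra from 8 to 22 Mb, the same count went up and down several times. There were 30 pairs at 700 to 800 bp and 28 at 800 to 900 bp, then 6 at 1100 to 1200 bp. There were 30 each at 1500 to 1600 and 1600 to 1700 bp, then 4 at 2000 to 2100 bp. There were 34 at 2500 to 2600 bp, then 8 at 2900 to 3000 bp, and 25 each at 3200 to 3300 and 3300 to 3400 bp, then 7 at 3600 to 3700 bp. Up to 3700 bp the highs lay near multiples of 800 bp, although the bin at 2400 to 2500 bp held 19 pairs. Beyond that the counts were less regular. They were 23 at 3900 to 4000 bp, 13 at 4000 to 4100 bp, 19 at 4300 to 4400 bp, 8 at 4500 to 4600 bp and 25 at 4900 to 5000 bp. From 28 Mb on, every bin from 900 to 5000 bp held between 19 and 40 pairs.

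**Figure D3:**
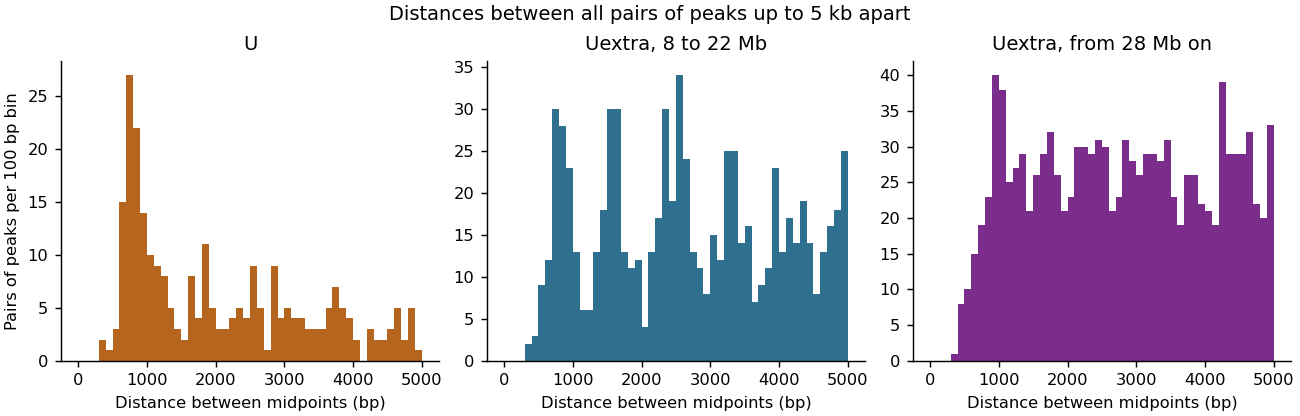
Pairs of peaks by the distance between their midpoints, in bins of 100 bp up to 5 kb, on U, on Uextra from 8 to 22 Mb and on Uextra from 28 Mb on. U has a single high at 700 to 900 bp. Uextra from 8 to 22 Mb has repeated highs near multiples of 800 bp up to 3700 bp, and less regular counts beyond. Uextra from 28 Mb on has between 19 and 40 pairs in every bin beyond 900 bp.

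The recurring distance was followed along Uextra in bins of 1 Mb. In each bin the best period was the length, between 400 and 1200 bp, at which midpoint distances under 12 kb fell nearest to whole multiples. Its strength is a mean cosine, which is 1 if every distance is a whole multiple and near 0 if distances are spread evenly, before the gain that comes from choosing the best length. From 8 to 26 Mb, every one of the 18 bins had a best period between 700 and 900 bp. It shortened along the sequence, being 894 bp in the ninth Mb, 821 bp in the 15th, 768 bp in the 22nd and 731 bp in the 26th. Of the 17 steps between neighbouring bins, 15 were down, and the largest step up was 4 bp. Spearman's rho of period and bin was -0.996 (18 bins of 1 sequence and 1 list). Outside that stretch the best periods of Uextra were scattered between 522 and 1079 bp. The bin just before it, Mb 8, had 917 bp, and the bin just after it, Mb 27, had 838 bp. The value of Mb 8 also goes with the shortening, so the limit at 8 Mb is not sharp.

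The strength of the period was modest when all peaks were used. The mean cosine was between 0.170 and 0.462 in the 18 bins, with a median of 0.317 and 59 to 190 distances in a bin. The 97 arm bins with at least 50 distances had best periods from 400 to 1198 bp, 27 of them between 700 and 900 bp. Their mean cosines were between 0.0831 and 0.395 with a median of 0.206, and 6 of them were above the Uextra median. On U, the bins with at least 50 distances were Mb 1, 2, 6 and 10. Their best periods were 807, 906, 743 and 963 bp, with mean cosines of 0.326, 0.324, 0.195 and 0.145. Mb 1 and 2 of U were thus above the Uextra median, and U had too few such bins to follow a period along it. The values of the arms and of U overlapped those of Uextra. The shortening from 8 to 26 Mb is described for that stretch only, and no trend of period along the arms was set beside it.

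The pattern was clearer in the weak peaks than in the others. Among peaks scoring under 20 alone, 8 bins of that stretch had at least 20 distances, and their best periods ran from 844 to 769 bp, each within 5 bp of the value from all peaks. Weak peaks are a subset of all peaks, so this closeness is partly built in. Their distances were 33 of 140 in the 12th Mb and 40 of 108 in the 22nd. Mean cosines of the weak peaks in the 8 bins were 0.503 to 0.761 with a median of 0.652. In the 46 arm bins with at least 20 such distances they were 0.230 to 0.912 with a median of 0.408, and 2 of these were above the Uextra median. In all, 140 of the 270 distances between weak peaks in the 8 bins (51.9%) lay within 0.1 periods of a whole multiple, a zone that is 20% of each period. The period of each bin was fitted to the same distances, which raises that share. Among peaks scoring 20 or more, 257 of 856 distances in 16 bins (30.02%) lay in the zone around their own best periods. Of those 16 bins, 4 had a best period between 700 and 900 bp, and rho was -0.215. These 4 were the 13th, 14th, 15th and 24th Mb, with best periods of 835, 841, 827 and 748 bp, close to the 840, 833, 821 and 751 bp of all peaks. Peaks scoring 20 or more are likewise a subset of all peaks. Weak peaks had too few distances in 10 of the 18 bins, the 24th among them. Replacing midpoints by starts left 12 of 18 bins in that range, with rho -0.522, and joining peaks under 500 bp apart left 16 of 18, with rho -0.707. The stretch, the range of periods and the measure were chosen after the data were examined.

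**Figure D4:**
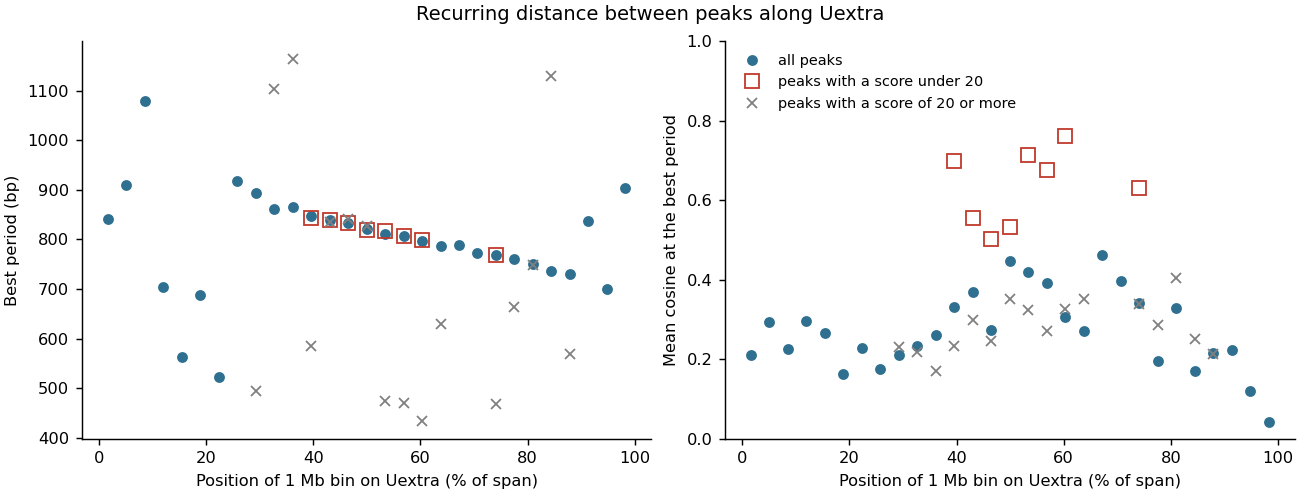
Best period (left, in bp) and its mean cosine (right) in bins of 1 Mb along Uextra, with position as percent of the span. Circles are all peaks, open squares peaks scoring under 20 and crosses peaks scoring 20 or more. Squares and crosses each use a subset of the peaks behind the circles. Circles and squares descend together through the middle, from 894 to 731 bp for all peaks, and 4 of 16 crosses lie between 700 and 900 bp.

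The strongest bin for weak peaks, 17 to 18 Mb, shows the values behind the period. Its best period was 799 bp, with 46 weak peaks and 25 distances under 12 kb, of which 20 lay within 0.1 periods of a whole multiple. The peaks at 17605744 to 17606213 and 17606596 to 17606981, for example, had midpoints 810 bp apart, 11 bp from 1 period. Midpoints of the peaks at 17428572 to 17428842 and 17430161 to 17430411 were 1579 bp apart, 19 bp short of 2 periods. The 5 distances farthest from a multiple missed it by 117 to 270 bp.

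A pattern of several peaks also recurred on U. A strong peak with a row of 3 peaks scoring under 50 on one side, at distances of 800 to 1000, 800 to 1000 and 550 to 700 bp between midpoints, was found at 15 places in the list. It was found at 2 places on U, 0 on Uextra, 7 on the heterochromatic scaffolds and 6 on the arms. Of the strong peaks, 2 of 65 on U, 0 of 576 on Uextra, 7 of 68 on the heterochromatic scaffolds and 6 of 2154 on the arms headed such a row. On U the first place was 90786 to 93888, with a strong peak of score 635.07 and lower peaks of 16.86, 11.04 and 22.32. The second was 1389433 to 1392555, in the opposite order, where the strong peak scored 635.07 as well and the others 19.4, 15.7 and 19.7. Distances were 919.5, 877 and 649 bp at the first place and 822.5, 945 and 669.5 bp at the second. Lengths were 3103 and 3123 bp on U, between 3007 and 3161 bp on the heterochromatic scaffolds and between 3072 and 3326 bp on the arms.

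A further weak peak stood beyond each row on U. It lay 1017.5 bp on at the first place, with a score of 9.81, and 1228.5 bp on at the second, with a score of 9.10. This was shared with other places. A peak 1000 to 1300 bp beyond the row was present at 2 of 2 places on U, 3 of 7 on the heterochromatic scaffolds and 2 of 6 on the arms, with scores from 7.13 to 49.15 over all 7. The limits of the layout and of this distance were set from places already seen. With each distance allowed between 500 and 1200 bp the list held 28 such places, with 2 on U, 0 on Uextra, 9 on the heterochromatic scaffolds and 17 on the arms.

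**Figure D5:**
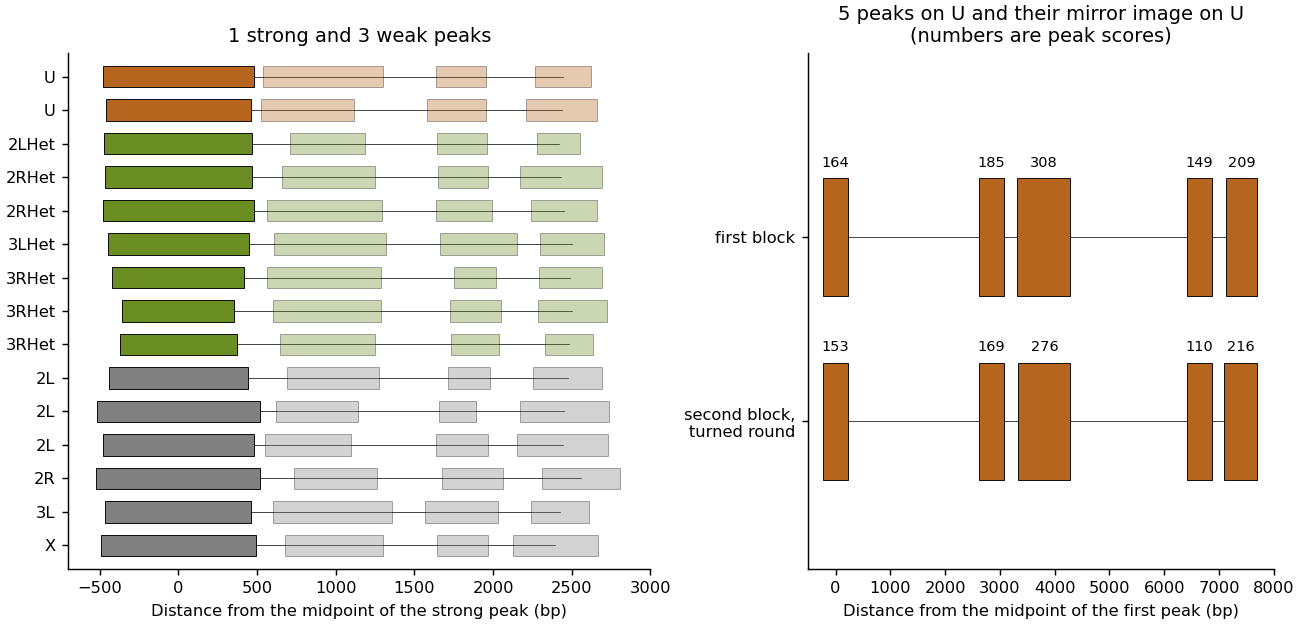
Peaks at the recurring layouts, drawn to scale in bp from the first peak, with each bar a peak. The rows of 1 strong and 3 weak peaks (pale bars score under 50) include 2 places on U, and the pair of mirrored blocks on U has 5 peaks at matching distances over 7917 and 7927 bp.

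A longer arrangement occurred at 2 places on U that lay 2335972 bp apart. The 5 peaks from 1101366 to 1109282, over 7917 bp, matched the 5 peaks from 3437338 to 3445264, over 7927 bp, in reverse order. Midpoint spacings at the first place were 2841.5, 953.5, 2846 and 769.5 bp. Read backwards at the second they were 2842.5, 970, 2834 and 750 bp, so no spacing differed by more than 19.5 bp. Widths were 457, 456, 973, 461 and 556 bp at the first place, and 461, 462, 946, 452 and 600 bp at the second. Scores were 164, 185, 308, 149 and 209 at the first place, and 153, 169, 276.3, 110 and 216 at the second, within 1.36-fold of each other. The first place lies in the densest 100 kb window of U and the second in a window of 13 peaks. Shorter runs of peaks were compared by spacings (within 30 bp). U and Uextra together had 7 matches among 596 runs, or 39.48 in each 1000000 comparisons, against 29 among 1346 runs, or 32.04, on the arms. U alone had 4 among 31 runs (8602 in each 1000000) and the heterochromatic scaffolds 6 among 57 runs (3759). Both of these rates rest on few runs. A pair of runs could count once in each order, and runs of the arrangement described here did. The 4 on U, also among the 7, were therefore not all separate recurrences. With widths also within 50 bp, 2 matches were left on U, 1 on the arms and 0 on Uextra and the heterochromatic scaffolds. The 2 on U were overlapping parts of the arrangement described here.

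Matched pairs of neighbours were about as frequent over all unplaced peaks as over arm peaks. Pairs of neighbours were compared by gap (within 5 bp), both widths (within 10 bp) and both scores (within 1.5-fold), in the same or reverse order. Among 1824 unplaced pairs of peaks under 5 kb apart there were 6 matches, or 3.61 in each 1000000 comparisons. Among 3741 arm pairs there were 26, or 3.72 in each 1000000. Of the 6, 3 joined pairs on U, 1 joined pairs on Uextra and 2 joined U with Uextra. One of these, U 1271387 with Uextra 778882, had the same pair of widths at both places, where gaps were 203 and 200 bp and widths 513 and 408 bp. Another, the mirrored pair of U 2110401 and U 2837796, had gaps of 388 bp at both places. On the 196 pairs of U alone, 3 matches came to 157 in each 1000000 comparisons, and on the 1628 pairs of Uextra alone 1 match came to 0.755 in each 1000000. Of the 3 on U, 1 joined U 1101366 with U 3441961, which are peaks of the mirrored blocks described above. The 273 pairs of the heterochromatic scaffolds gave 0 matches.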

How the data were processed

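GAF ChIP DNA (3 libraries) and input DNA (3 libraries) were sequenced, and the authors deposited a single list of 11713 peaks on 15 sequences. CASAVA (1.7.0.2, 1.7.0.3), MACS2 and BWA are named, per the submitters' processing notes, with build BDGP5. Per the file headers, peaks came from MACS on FlyBase release 5. Each peak has a score from the authors. Neither its scale nor the calling threshold nor the use of the libraries in the call is stated in the sources used here, so it served only to describe, rank and filter peaks within the list. The depth is unknown. Positions are counted from 1, because the smallest listed start was 0.

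No test was made, since the list has no value per library and peaks are not replicates. Shares have 95% Wilson intervals. Spans run from first to last peak. Named regions were, on each of U and Uextra, the 10 highest scores, the 5 widest peaks, the 5 densest 100 kb windows, the 5 largest groups, the 5 longest stretches without a peak, the most even run of 10 spacings and the 5 most frequent widths and spacings, with a selection of each in the text. Members, measures and limits were chosen with earlier results of these data known. The searches for matched pairs, runs, layouts and periods were made after the data were examined, in more than 1 version. These included other tolerances, between 20 and 50 bp, and runs of 2 to 4 spacings, and the periods were first searched up to 4000 bp. The period search was checked on simulated peaks with a planted period. Every simulated peak in that check followed the period. The check therefore does not show what the search returns for a weaker period, or for none. The share of peaks holding GAGAG was planned and not run, because a genome of release 5 was not used here, and no sequence is shown for the same reason. The gene table at hand was of release 6, so no coordinate or gene name was taken from it. Alternatives tried were peaks scoring at least the list median, peaks with gaps under 500 bp joined, other windows, neighbour distances and bins, and, added later, removal of Uextra from 28 Mb on. Scripts ran in Python 3.11.15 with scipy 1.17.1, pandas 2.3.3, matplotlib 3.10.9 and numpy 2.4.6.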

Additional observations from a re-analysis of the deposited data

How the results depend on the processing

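Over 22 results and 88 alternative values, 55 stayed near the reported value, 31 moved and 2 turned round. Near meant within 1.5-fold for counts and ratios and inside the 95% Wilson interval for shares. For differences it meant both medians inside the 95% intervals of the reported medians. Among peaks at or above the list median score (255 on U and 1524 on Uextra), the median score of U minus that of Uextra became -60.82 (medians 169.27 and 230.09) and the median width difference became -56 bp (461 and 517 bp). The lead of U in median score therefore holds for all peaks and not for the stronger ones. In the same set the unplaced share of the list was 30.4%, the gap difference 5479.5 bp, and unplaced minus arms -154.7 in score and -377 bp in width. With peaks under 500 bp apart joined, the unplaced share was 34.2%, the U minus Uextra differences were 16 bp in width and 6780 bp in gap, and unplaced minus arms was -58.52 in score and -229 bp in width. Joining leaves 0 close neighbours and 0 groups by construction.

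Without Uextra from 28 Mb on, an alternative added after the data were examined, the unplaced share was 28.9%, U minus Uextra was 30.2 in score, 22 bp in width and 1802 bp in gap, and unplaced minus arms was -25 in score and -152 bp in width. The share of unplaced peaks with a close neighbour was then 14.0%, against 20.2% with all peaks, and groups of 3 or more numbered 16 against 57. That share was 18.6% without the densest window of each sequence and 30.4% for neighbours under 1000 bp away. Over 5 spacings the lowest coefficients of variation were 0.303 on U and 0.102 on Uextra. In 50 kb windows the densest held 11 peaks on U and 37 on Uextra. In bins of 10 bp the most frequent width on U started at 360 bp. The layout of 1 strong and 3 lower peaks occurred at 28 places in the list with distances of 500 to 1200 bp. The share of bins with a best period of 700 to 900 bp was 25% for peaks scoring 20 or more and 66.7% with starts in place of midpoints.

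No paired analysis was possible because libraries have no values of their own in the list, and leaving out a replicate had no value for that reason. The GAGAG alternatives were not run. The placement of reads that match several repeats was not tested.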

Other observations

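Identical scores recurred among both unplaced and arm peaks. The share of peaks with a shared score can grow with the size of the set, and the sets differed in size. Of the 191 peaks on U scoring 100 or more, 59 shared their score, to 2 decimals, with another of them (30.9%), as did 362 of 1273 on Uextra (28.4%) and 1500 of 3321 on the arms (45.2%). On Uextra, 6 of these peaks also shared their width with a peak of the same score, against 0 on U and 2 on the arms.

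Neighbouring peaks under 500 bp apart differed in score by 3-fold or more in 29 of 87 pairs on U (33.3%, 95% Wilson interval 24.3 to 43.8), 62 of 208 on Uextra from 28 Mb on (29.8%, 24.003 to 36.3) and 68 of 151 on Uextra before it (45.0%, 37.3 to 53.0). On the heterochromatic scaffolds it was 48 of 145 pairs (33.1%, 25.97 to 41.1), and on the arms 801 of 1505 pairs (53.2%, 50.7 to 55.7). The intervals for U, for Uextra from 28 Mb on and for the heterochromatic scaffolds lay under the interval for the arms, and the difference was not tested.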
